A study of Homo sapiens with 12 samples.

Results

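The RNA of 10 genes of lower glycolysis and lactate handling was followed in prostate cancer cells set up to overexpress or to silence the MUC1-C oncoprotein. Its protein level was not measured here. The genes were chosen by symbol, as the steps from fructose bisphosphate to pyruvate, lactate and its export, and all 10 were listed in each of 2 count tables, among 25435 genes in the overexpression table and 28008 in the LNCaP-ER table. They were the enzymes ALDOA, GAPDH, PGK1, PGAM1, ENO1 and PKM, the lactate dehydrogenase subunits LDHA and LDHB, and the lactate transporters SLC16A1 and SLC16A3.

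Glycolysis splits glucose into pyruvate, and its lower part is where ATP and NADH are made. Lactate dehydrogenase turns pyruvate into lactate and restores NAD+, and monocarboxylate transporters carry lactate with a proton across the plasma membrane. Several of these genes are textbook targets of MYC and of the hypoxia-inducible factor HIF-1, and many tumours express them at high levels even where oxygen is present.

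The study asked how MUC1-C, the transmembrane subunit of the MUC1 mucin, acts in prostate cancer cells that no longer respond to treatment. In the overexpression experiment, 3 libraries labelled LNCaP and wild-type, whose table columns are named vector, were compared with 3 libraries labelled LNCaP and tetMUC1-C, here called LNCaP/MUC1-C OE. The titles of the latter read shMUC1-C OE, and the sh prefix goes unexplained. In the silencing experiment, LNCaP-ER cells, an enzalutamide-resistant derivative of LNCaP, carried a doxycycline-inducible shRNA against MUC1 in the pLKO-tet-puro vector and were treated for 7 days with DMSO vehicle or with 500 ng/mL doxycycline (DOX), with 3 libraries each. LNCaP is a line from a lymph node metastasis of prostate cancer, and enzalutamide is a hormone therapy for that disease. The silencing libraries came from 1 shRNA in 1 resistant line, and no library with DOX and an unrelated shRNA was analysed here. Cells were cultured in triplicate, so p-values measure the spread between cultures of 1 line.

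Total counts ranged from 13806856 to 19208944 per library in the overexpression table and from 28045894 to 45807989 in the LNCaP-ER table. MUC1, the gene that was manipulated, had 25 to 31 counts in the libraries labelled LNCaP and 9168 to 12622 in LNCaP/MUC1-C OE. It had 10 to 26 counts in vehicle and 3, 42 and 8 counts in libraries labelled DOX 1, 2 and 3, of which the second goes against the label. That library also held counts on 66.9% of the 8413 genes at 0 in every vehicle library, against 20.2% and 23.4% in the other DOX-labelled libraries. The cell identity of the overexpression table went against its label. Summed over 5 luminal prostate markers (KLK3, KLK2, TMPRSS2, HOXB13 and FOLH1), CPM, the counts scaled to a fixed library total, were 74.3 to 84.4 in the libraries labelled LNCaP and 28.4 to 31.2 in LNCaP/MUC1-C OE, against 2511 to 2813 in LNCaP-ER vehicle and 3271 to 3922 in the libraries labelled DOX. KLK3, which encodes prostate-specific antigen, KLK2 and FOLH1 had 0 counts in all 3 LNCaP/MUC1-C OE libraries and TMPRSS2 had at most 1, whereas all 5 markers were counted in every library labelled LNCaP. VIM, an intermediate filament gene of mesenchymal cells, was at 457 to 508 CPM in the libraries labelled LNCaP and 1182 to 1265 CPM in LNCaP/MUC1-C OE, and at 4.68 to 5.90 CPM in LNCaP-ER vehicle. It made up nearly all of a list of 6 basal or mesenchymal markers, which summed to 476 to 524, 1204 to 1287 and 4.73 to 6.17 CPM in these groups, and of the others CAV1 was at means of 13.7 CPM in the libraries labelled LNCaP and 20.4 CPM with overexpression, AXL at 2.39 and 0.455 CPM, CD44 at 0.318 and 0.772 CPM, KRT5 at 0 in both and TP63 at 0.0359 and 0. The overexpression groups are therefore named by their labels throughout. A list of 6 neuroendocrine markers summed to 149 to 158 CPM in the libraries labelled LNCaP and 138 to 153 CPM in LNCaP/MUC1-C OE. In LNCaP-ER vehicle it summed to 0.915 to 1.05 CPM. Luminal markers and VIM moved with the overexpression groups, HOXB13 only from a mean of 35.5 to 29.8 CPM, while the neuroendocrine sums overlapped. The part of identity markers in the results below was not tested. In bulk RNA, fewer cells of a type and less RNA per cell cannot be told apart.

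In the overexpression experiment LDHA passed the test threshold as higher and LDHB did not, and their changes were not compared by a test. ENO1 had the largest increase among the enzymes. The upstream sequences of LDHA, LDHB and ENO1 are shown for that reason. Each is the 250 bases before a transcription start in RefSeq (GRCh38.p14), written 5′ to 3′ on the gene's strand, with every CACGTG, the E-box bound by MYC with MAX, in capitals. The windows are chr11:18394313-18394562 on the plus strand for LDHA, chr12:21657843-21658092 on the minus strand for LDHB and chr1:8878687-8878936 on the minus strand for ENO1.
LDHA: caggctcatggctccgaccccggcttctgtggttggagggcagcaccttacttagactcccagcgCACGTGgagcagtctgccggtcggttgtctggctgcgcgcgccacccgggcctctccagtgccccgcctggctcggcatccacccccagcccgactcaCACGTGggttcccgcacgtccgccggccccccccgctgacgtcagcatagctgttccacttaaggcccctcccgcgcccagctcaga
LDHB: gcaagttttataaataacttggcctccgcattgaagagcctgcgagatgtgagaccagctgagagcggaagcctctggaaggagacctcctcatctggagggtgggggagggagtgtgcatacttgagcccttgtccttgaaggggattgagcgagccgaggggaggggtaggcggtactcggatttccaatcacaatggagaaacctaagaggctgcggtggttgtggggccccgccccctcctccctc
ENO1: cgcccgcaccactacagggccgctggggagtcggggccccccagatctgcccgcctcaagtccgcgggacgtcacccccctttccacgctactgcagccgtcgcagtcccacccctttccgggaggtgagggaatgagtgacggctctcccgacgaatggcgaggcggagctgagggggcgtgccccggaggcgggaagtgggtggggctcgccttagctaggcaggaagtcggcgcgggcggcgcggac

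The LDHA window held CACGTG at positions -185 and -87 from the start, and the LDHB and ENO1 windows held none. The motif reads the same on both strands, so both were searched at once. Of the 9 genes with an entry, with 16 promoters between them, GAPDH also held it at -81, and ALDOA at -112 in 1 of its 3 promoters. The second LDHA promoter, chr11:18396101-18396350, held none, and the bases just after the GAPDH start were found in 0 of 11 GENCODE transcripts of that gene. PGK1, PGAM1, PKM and SLC16A3 held none. The windows of GAPDH, PGAM1, PKM and SLC16A3 all lay within the gene as annotated, so bases before its outermost start were not searched. SLC16A1 had no entry. Among all 35116 promoters given by RefSeq, 6.34% held CACGTG, or 7.73% of 27305 genes. The GC content was 69.6% for LDHA, 58.0% for LDHB and 72.0% for ENO1. These matches describe letters in a window, and no binding was measured here.

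With MUC1-C overexpression, most lower glycolysis genes were modestly higher and LDHB was not. Of the 9 genes that passed the filter on low counts, 6 were higher in LNCaP/MUC1-C OE, 1 was lower and 2 did not pass an adjusted p of 0.05 in the quasi-likelihood test of edgeR, with Benjamini-Hochberg adjustment over 13836 genes. The same 6 and 1 had libraries that did not overlap between the groups. Across all those genes 67.3% passed, 33.2% higher and 34.1% lower, and 70.3% did not overlap, 34.4% higher and 35.9% lower, so a call was common, and the number of calls among these genes is not by itself a result about them. The median log2 fold change of the 9 was 0.24, against -0.01 for all genes tested, whose quartiles were -0.38 and 0.30. ENO1 and SLC16A1 lay above the upper quartile and the other 7 between the quartiles. All values in this comparison are CPM after TMM scaling unless another scale is named, and scaling by library size alone moved the median of all genes to -0.16, with 3 of the 9 then higher and 3 lower, and the share of all called genes that were higher went from 49.4% to 32.3%.

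**Figure D1:**
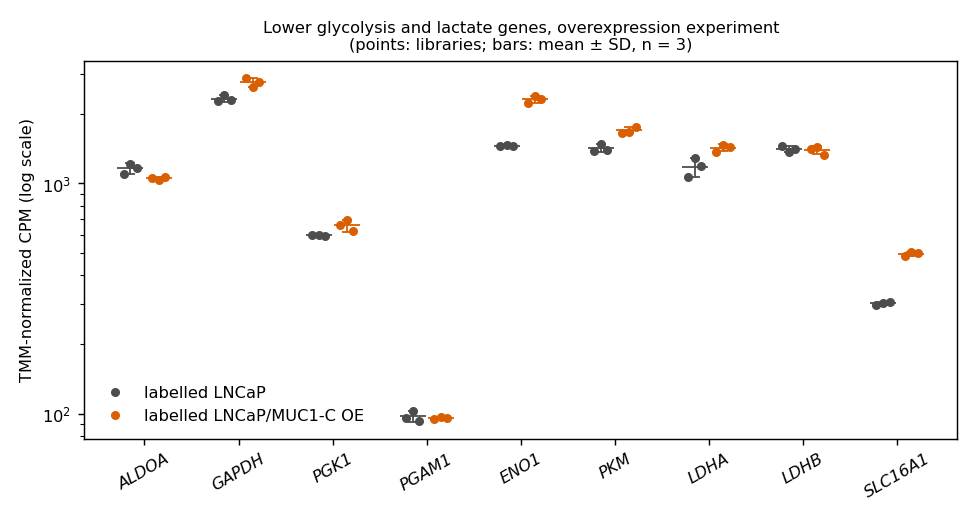
TMM-normalized CPM (log scale) of 9 genes in the 3 libraries labelled LNCaP (grey) and the 3 LNCaP/MUC1-C OE libraries (orange), with each point a library and bars giving mean ± SD (n = 3). ENO1 and SLC16A1 show the widest gaps, at 1462 against 2320 CPM and 302 against 495 CPM, the LDHB and PGAM1 points overlap, and PGK1 changed sign to -0.01 (log2) when library size alone set the scale.

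ALDOA, the aldolase that splits fructose bisphosphate, was the only enzyme of the 6 that fell. It was at 1102, 1221 and 1167 CPM in the libraries labelled LNCaP and at 1055, 1035 and 1066 CPM in LNCaP/MUC1-C OE. The groups did not overlap, and the log2 fold change was -0.14 (SE 0.045, edgeR adjusted p = 0.00885), or -0.30 under library size alone. Without LNCaP replicate 2, the highest control, the difference no longer passed (-0.11, edgeR adjusted p = 0.0714).

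GAPDH, which reduces NAD+ to NADH, was at 2277, 2426 and 2300 CPM in the libraries labelled LNCaP and at 2871, 2625 and 2746 CPM in LNCaP/MUC1-C OE. Every overexpression library was above every control, with a log2 fold change of 0.24 (SE 0.045, edgeR adjusted p = 1.67e-04). PGK1, phosphoglycerate kinase and the first ATP-yielding step, was at 597, 597 and 594 CPM against 658, 697 and 618 CPM. Its controls were tightly grouped and lay below all 3 overexpression libraries (0.14, SE 0.047, edgeR adjusted p = 0.0131), but the sign turned to -0.01 under library size alone, and without LNCaP replicate 3 the adjusted p was 0.0505. GAPDH also failed the threshold under library size alone (0.08, edgeR adjusted p = 0.110). PGAM1, the mutase that moves the phosphate group, was at 97.3 ± 4.89 CPM and 95.5 ± 0.96 CPM (SD, n = 3 each). Its groups overlapped (-0.03, edgeR adjusted p = 0.672), and of the settings run it was called, as lower, only under library size alone (-0.18, edgeR adjusted p = 0.00511).

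ENO1, enolase, which forms phosphoenolpyruvate, had the largest increase of the 6 enzymes. It was at 1456, 1476 and 1453 CPM in the libraries labelled LNCaP and at 2238, 2401 and 2323 CPM in LNCaP/MUC1-C OE. The gap between the groups was many times the spread within them, with a log2 fold change of 0.67 (SE 0.042, edgeR adjusted p = 2.32e-10) that was 0.51 under library size alone. PKM, pyruvate kinase, was at 1386, 1484 and 1401 CPM against 1663, 1680 and 1760 CPM (0.26, SE 0.043, edgeR adjusted p = 5.17e-05), with 0.10 under library size alone (edgeR adjusted p = 0.0432). Its groups did not overlap, and counts per gene cannot separate its M1 and M2 splice forms. The ratio of ENO1 to ALDOA counts within a library, which no scaling of libraries can change, was 1.32, 1.21 and 1.24 in the libraries labelled LNCaP and 2.12, 2.32 and 2.18 in LNCaP/MUC1-C OE.

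LDHA encodes the M subunit of lactate dehydrogenase and LDHB the H subunit, which assemble into tetramers. LDHA was at 1063, 1291 and 1188 CPM in the libraries labelled LNCaP and at 1375, 1470 and 1440 CPM in LNCaP/MUC1-C OE. The controls were widely spread and all lay below the overexpression libraries (0.27, SE 0.058, edgeR adjusted p = 6.51e-04), while under library size alone LDHA did not pass (0.12, edgeR adjusted p = 0.0747). LDHB was at 1458, 1369 and 1415 CPM against 1412, 1442 and 1335 CPM. These groups overlapped (-0.02, SE 0.044, edgeR adjusted p = 0.736), and under library size alone LDHB was called lower (-0.17, edgeR adjusted p = 0.00212). The ratio of LDHA to LDHB counts was 0.729, 0.943 and 0.840 in the libraries labelled LNCaP and 0.974, 1.02 and 1.08 in LNCaP/MUC1-C OE, so the groups did not overlap but lay close.

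SLC16A1 encodes MCT1, a monocarboxylate transporter found in most tissues. It was at 297, 303 and 305 CPM in the libraries labelled LNCaP and at 484, 503 and 498 CPM in LNCaP/MUC1-C OE. No overexpression library came near the controls, and this was the largest difference among the 9 genes (0.71, SE 0.043, edgeR adjusted p = 1.30e-10; 0.56 under library size alone). Its count relative to that of GAPDH in the same library rose from 0.129 ± 0.0040 to 0.180 ± 0.012 (SD, n = 3 each). SLC16A3 encodes MCT4, the lactate exporter of strongly glycolytic cells and a hypoxia-inducible gene. It was counted 3, 0 and 8 times in the libraries labelled LNCaP and 4, 2 and 0 times in LNCaP/MUC1-C OE, below the filter on low counts. In fits that kept it, the adjusted p was 0.809 with DESeq2 and 0.670 with edgeR without a filter, so any difference was not detectable at this depth.

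The 3 genes most like LDHA over the 6 libraries of the overexpression table, by Pearson correlation of log2 CPM among 11066 genes, were MAN2B2, SGMS2 and PDIA3 (r of 0.9882 to 0.9903). For LDHB they were RFC1, MSANTD3 and LRTOMT (0.961 to 0.980). For SLC16A1 they were FUCA2, FOXJ3 and LIN9 (0.9996 to 0.9999), and 653 genes reached 0.99. The 6 points share 2 groups, so these values only describe likeness. SLC16A3 was too low to be compared.

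Of a list of 16 other genes, made of alternative forms of these enzymes, the unrelated D-lactate dehydrogenase LDHD and triosephosphate isomerase TPI1, 8 were tested in the overexpression experiment, of which 1 was higher and 4 lower (median log2 fold change -0.50), and under library size alone 1 was higher and 6 lower. ENO2, the neuronal enolase, was at 52.2, 51.4 and 48.6 CPM in the libraries labelled LNCaP and at 16.0, 14.2 and 11.96 CPM in LNCaP/MUC1-C OE (-1.86, edgeR adjusted p = 6.30e-12). Its direction was thus opposite to that of ENO1. ENO3, the muscle enolase (-0.79), ENO4 (-1.24) and the mitochondrial LDHD (-1.76), also fell, each from under 4 CPM. ALDOC, the brain aldolase, was the only one that rose, from 9.24 to 18.5 CPM (1.00, edgeR adjusted p = 1.36e-07), while ALDOA fell. TPI1 was level at 673 and 676 CPM (0.01, edgeR adjusted p = 0.927), and BPGM (0.08) and LDHC (-0.21) did not pass.

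Among 8 further genes of pyruvate and lactate transport, 6 were tested, of which 3 were higher and 2 lower (median 0.13, which became -0.02 under library size alone, with 2 higher and 3 lower). BSG, the chaperone basigin that brings MCT1 and MCT4 to the cell surface, rose from 323 ± 5.33 to 485 ± 14.8 CPM (SD, n = 3 each; 0.59, edgeR adjusted p = 2.17e-09). EMB, embigin, a related chaperone, rose by a smaller amount (0.27), as did the mitochondrial pyruvate carrier subunit MPC1 by 0.57. SLC16A7, which encodes the high-affinity transporter MCT2, fell from 26.0 ± 0.956 to 12.6 ± 0.948 CPM (-1.04, edgeR adjusted p = 8.48e-09). SLC5A12, a sodium-coupled lactate transporter, fell from 2.28 to 0.110 CPM (-4.26, edgeR adjusted p = 5.14e-08).

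Upstream of the split, 9 of 11 tested genes of glucose uptake and upper glycolysis were higher and none was lower by edgeR (none also at an unadjusted p under 0.05 by edgeR or DESeq2; median 0.52), with 7 higher and 1 lower under library size alone. PFKP, the platelet phosphofructokinase (0.89), PFKFB2, which makes its activator fructose 2,6-bisphosphate (1.00), and GPI, glucose phosphate isomerase (0.49), had the smallest p. The pyruvate dehydrogenase list, the route that competes with lactate dehydrogenase for pyruvate, had 1 of 11 higher and 6 lower (median -0.20), or 0 higher and 8 lower under library size alone. The 6 lower genes were PDP1, a phosphatase that activates the complex (-0.59), its subunits DLD (-0.26) and PDHX (-0.29), and the inhibiting kinases PDK1 (-0.20), PDK2 (-0.30) and PDK3 (-0.27), so both activating and inhibiting genes fell. The higher one was PDK4, another inhibiting kinase (0.46, from 4.21 CPM). With DESeq2 none of the 11 was called higher, while 2 were at an unadjusted p under 0.05.

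Of 18 tested genes of the hypoxia response outside glycolysis, 10 were higher and 5 lower (median 0.22), or 8 and 6 under library size alone. EGLN1, an oxygen sensor (0.94), VEGFA, an angiogenic factor (0.89), and CA12, a carbonic anhydrase (1.20), rose, and the mitophagy receptor BNIP3L (-0.72), the demethylase KDM3A (-0.19) and the collagen hydroxylase P4HA2 (-0.23) fell. In the list of MYC family genes and splicing factors that act on PKM, 7 of 10 were higher and 2 lower (median 0.30), or 5 and 2 under library size alone. PTBP1 (0.62), HNRNPA2B1 (0.56) and SRSF3 (0.50), splicing factors known to bear on the choice of PKM exons, rose, and their neuronal relative PTBP2 (-0.26) and the low MYCN (-0.89) fell. MYC itself was at 112 and 125 CPM (0.16, edgeR adjusted p = 0.0117).

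In the silencing experiment, the same 9 genes were tested against a lower background, with 27.3% of 14683 genes called, 12.8% higher and 14.5% lower in the libraries labelled DOX. PGAM1, LDHA, LDHB and SLC16A1 were lower, 4 of the 9, and none was higher by the quasi-likelihood test of edgeR with Benjamini-Hochberg adjustment. At an unadjusted p under 0.05, ENO1 was higher by edgeR, and with DESeq2, which kept all 10 genes, 2 were higher, ENO1 and SLC16A3. Of all called genes 46.8% were higher, or 59.6% under library size alone. Libraries did not overlap between the groups for 4 lower and 2 higher members, ALDOA and ENO1, against 23% and 21.2% of all genes, or 44.3% in either direction. The median of the 9 log2 fold changes was 0.06, against -0.02 for all genes tested. No library is shared between the experiments, and the difference between their effects was not tested, since they differ in cells, table and manipulation.

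**Figure D2:**
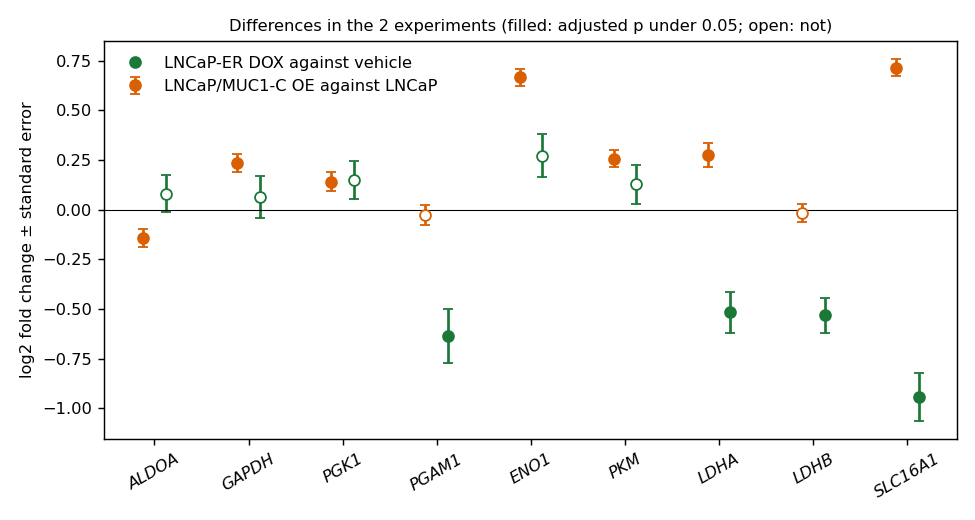
Log2 fold change ± standard error of 9 genes in LNCaP/MUC1-C OE against libraries labelled LNCaP (orange) and in libraries labelled LNCaP-ER DOX against vehicle (green), filled where the edgeR adjusted p was under 0.05. SLC16A1 stands at 0.71 and -0.94 and LDHA at 0.27 and -0.52. On the deposited TPM scale LDHA and LDHB with DOX were at 0.03 each, and PGK1 with overexpression was at -0.01 under library size alone.

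SLC16A1 was at 156, 189 and 185 CPM in the vehicle libraries and at 98.5, 97.7 and 79.2 CPM in those labelled DOX. The groups stood well apart, with a log2 fold change of -0.94 (SE 0.12, edgeR adjusted p = 0.00123). SLC16A1 was thus higher with overexpression and lower in the libraries labelled DOX, each past its own threshold by edgeR. LDHA was at 526, 487 and 511 CPM and at 367, 314 and 384 CPM (-0.52, edgeR adjusted p = 0.00797), and LDHB at 154, 179 and 172 CPM and at 118, 114 and 117 CPM (-0.53, edgeR adjusted p = 0.00392). Both subunits fell together, and the ratio of LDHA to LDHB counts was 3.04 ± 0.35 in vehicle and 3.05 ± 0.28 in the libraries labelled DOX (SD, n = 3 each). On the deposited TPM scale, where the median of all genes rose by 0.45, LDHA and LDHB were both at 0.03 and uncalled (limma adjusted p = 0.908 and 0.927), or -0.42 each relative to that median. SLC16A1 also lost its call there (-0.37, limma adjusted p = 0.159), at -0.82 relative to the median. PGAM1 was at 262, 264 and 255 CPM against 177, 131 and 194 CPM (-0.64, edgeR adjusted p = 0.0105), and on the TPM scale it was at -0.10 (limma adjusted p = 0.729).

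ENO1 was at 512, 548 and 502 CPM in vehicle and at 601, 576 and 709 CPM in the libraries labelled DOX. The DOX-labelled libraries were all above vehicle, but the difference did not pass (0.27, edgeR adjusted p = 0.0946), and without the library labelled DOX replicate 2 it did (0.36, edgeR adjusted p = 0.0278). ALDOA (0.08), GAPDH (0.06), PGK1 (0.15) and PKM (0.13) had edgeR adjusted p between 0.272 and 0.686. SLC16A3 had 5, 5 and 1 counts in vehicle, and the DOX-labelled libraries had 8, 35 and 23. The highest count was in replicate 2, the library that held counts on most genes absent from vehicle, and the gene was below the filter on low counts. In fits that kept it, the log2 fold change was 2.49 with DESeq2 (adjusted p = 0.0810) and 2.42 with edgeR without a filter (adjusted p = 0.158).

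Among related genes, SLC16A7 fell from 44.2 to 9.83 CPM with DOX (-2.17), so that its direction was the same in both experiments, unlike that of SLC16A1. ALDOC was at 43.7 to 46.2 CPM in vehicle and at 62.5, 110 and 67.0 CPM in the libraries labelled DOX (0.81, edgeR adjusted p = 0.0160). ENO3 fell (-1.22, edgeR adjusted p = 0.00688). ENO2 was at 6.27, 3.33 and 5.97 CPM against 5.09, 18.8 and 6.17 CPM, with the outlying value again in the library labelled DOX replicate 2, and did not pass. TPI1 (0.15), BPGM (-0.24), PGAM4 (-0.11), ENO4 (-0.44) and LDHD (0.36) did not pass either. In the list of MYC and PKM splicing factors, 6 of 9 were lower and 0 higher by edgeR (0 also at an unadjusted p under 0.05 by edgeR and by DESeq2; median -0.55), whereas on the TPM scale 0 were lower and 2 higher. With RN7SK and other short RNAs left out and TPM rescaled, 3 were lower and 0 higher by limma. At an unadjusted p under 0.05 these became 6 and 2. MYC was at 375, 623 and 622 CPM in vehicle and at 391, 376 and 313 CPM in the libraries labelled DOX. It was called lower near the threshold (-0.59, edgeR adjusted p = 0.0491), and its groups overlapped. The lists of upper glycolysis (5 of 13 higher, 0 lower), hypoxia (5 of 18 higher, 1 lower), pyruvate dehydrogenase (0 of 10 higher, 2 lower) and transport (1 of 5 higher, 1 lower) had medians of 0.35, 0.28, -0.14 and 0.13. These are edgeR counts, and at an unadjusted p under 0.05 no upper glycolysis gene was lower by edgeR or DESeq2, while 1 pyruvate dehydrogenase gene was higher by edgeR and 2 by DESeq2.

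Levels were also set side by side between the tables, as CPM of the library total and without a test, since cell line, table and counting cannot be told apart. LDHB differed most. It was at 1541, 1439 and 1491 CPM in the libraries labelled LNCaP and at 156, 171 and 164 CPM in LNCaP-ER vehicle, 9.11-fold lower, or 7.96-fold lower with TMM over shared genes. Of the 11260 genes with at least 10 counts in all 6 libraries, 5.74% were at least as far apart, and 40.4% differed by over 2-fold, with a median log2 ratio of -0.20.

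ENO1 was 3.04-fold lower in LNCaP-ER vehicle than in the libraries labelled LNCaP (508 against 1541 CPM), LDHA 2.51-fold lower (495 against 1244 CPM), PGK1 2.30-fold lower (274 against 628 CPM) and PKM 2.18-fold lower (688 against 1501 CPM). SLC16A1 (172 against 318 CPM) and ALDOA (802 against 1226 CPM) were lower by less. GAPDH (2959 against 2461 CPM) and PGAM1 (254 against 103 CPM) were higher. Hence 7 of 9 were lower and 2 higher under each of 3 scalings. Of the 11260 genes, 81.7% were at least as far apart as GAPDH, 59.7% as ALDOA and 45.6% as SLC16A1. For PKM, PGK1, PGAM1, LDHA and ENO1 these shares were 35.5%, 32.9%, 29.3%, 28.7% and 21.4%. In sum the 10 genes took 1.03% to 1.08% of counts in the libraries labelled LNCaP, 1.12% to 1.13% in LNCaP/MUC1-C OE, 0.616% to 0.643% in LNCaP-ER vehicle and 0.642% to 0.689% in the libraries labelled DOX.

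**Figure D3:**
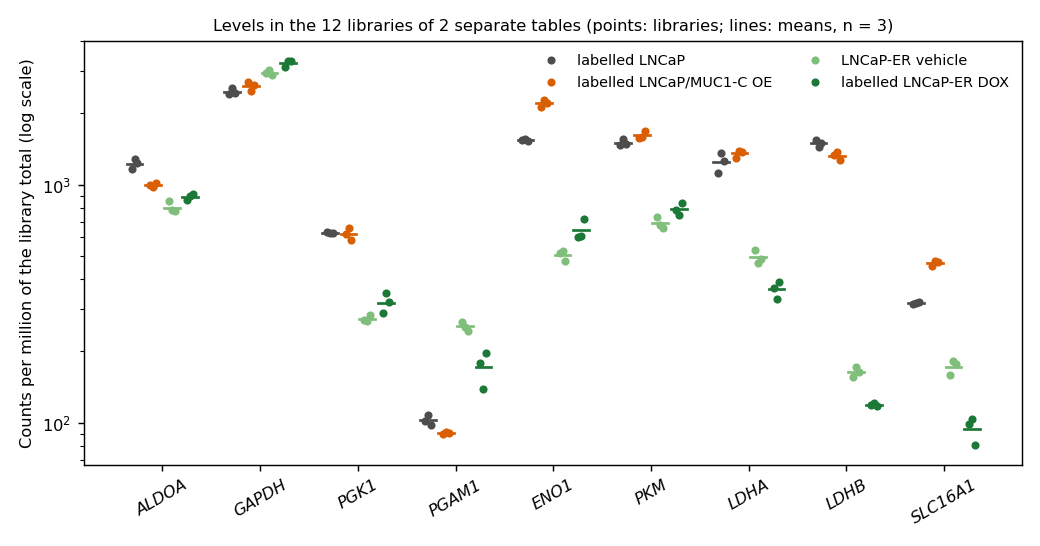
CPM of the library total (log scale) of 9 genes in the 12 libraries, with each point a library, each short line a mean (n = 3), and colours for libraries labelled LNCaP, LNCaP/MUC1-C OE, LNCaP-ER vehicle and LNCaP-ER DOX. LDHB drops from a mean of 1490 CPM in libraries labelled LNCaP to 164 CPM in LNCaP-ER vehicle, while GAPDH is at 2461 and 2959 CPM; the 2 tables were made separately.

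Genes were compared with each other only per length, on a TPM-like scale with lengths implied by the counts and TPM of the LNCaP-ER table. In the libraries labelled LNCaP, GAPDH was highest (3395 ± 82.1, SD, n = 3), then LDHB (2517 ± 104), LDHA (1215 ± 106), PKM (1061 ± 28.5), ENO1 (1040 ± 4.08), ALDOA (853 ± 35.3), PGK1 (651 ± 6.66), SLC16A1 (161 ± 1.92), PGAM1 (124 ± 5.17) and SLC16A3 (0.201 ± 0.22). Of these neighbours in order, PKM and ENO1 overlapped and the others did not. In LNCaP/MUC1-C OE the order was GAPDH (3482), LDHB (2166), ENO1 (1440), LDHA (1283), PKM (1105), ALDOA (673), PGK1 (626), SLC16A1 (230) and PGAM1 (106), with ENO1 now above LDHA and PKM in every library, and ALDOA and PGK1 overlapping.

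In LNCaP-ER vehicle LDHB was far down the order. GAPDH (4222 ± 106) was followed by ALDOA (577 ± 45.8), PKM (503 ± 38.9), LDHA (501 ± 46.9), ENO1 (354 ± 20.2), PGAM1 (317 ± 19.9), PGK1 (293 ± 12.3), LDHB (286 ± 6.59) and SLC16A1 (89.6 ± 4.17). LDHA overlapped ALDOA and PKM, ENO1 overlapped PGAM1, and PGK1 overlapped PGAM1 and LDHB, so those neighbours did not differ beyond their spread. In the libraries labelled DOX, LDHA (374) was below ENO1 (457), and SLC16A1 was at 50.01 ± 6.18. Per length, the LDHA to LDHB ratio was 0.485 ± 0.062 in the libraries labelled LNCaP, 0.593 ± 0.030 in LNCaP/MUC1-C OE, 1.76 ± 0.20 in vehicle and 1.77 ± 0.16 in the libraries labelled DOX. LDHB was therefore the more abundant subunit transcript in the overexpression table and LDHA in the LNCaP-ER table, in every library.

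**Figure D4:**
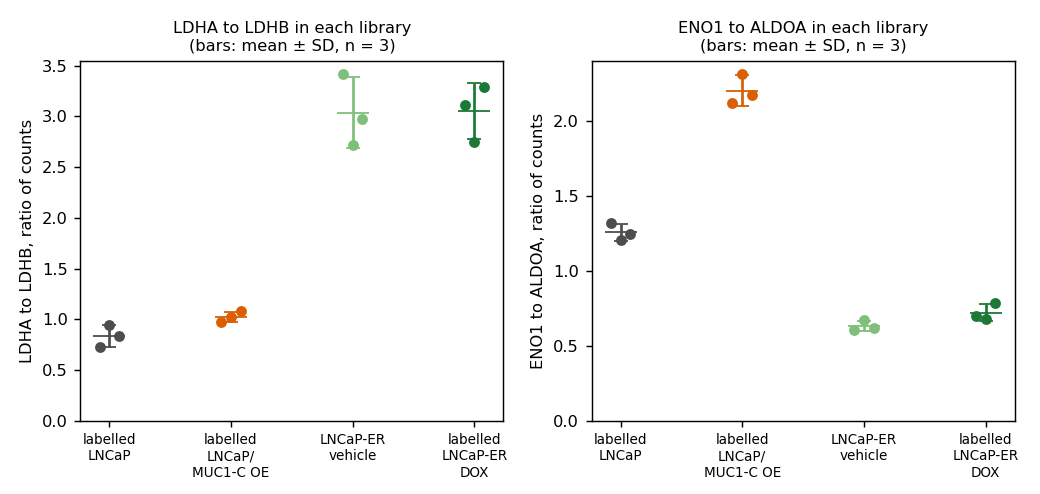
Ratio of counts of LDHA to LDHB (left) and of ENO1 to ALDOA (right) in each of the 12 libraries, with points for libraries and bars for mean ± SD (n = 3). LDHA to LDHB lies between 0.729 and 1.08 in the overexpression table and between 2.72 and 3.41 in the LNCaP-ER table, and ENO1 to ALDOA rises from 1.26 to 2.21 with overexpression.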

How the data were processed

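RNA-Seq of 12 libraries in 4 groups was analysed, grouped by the sample labels. The authors prepared stranded mRNA libraries, aligned reads with STAR to GRCh38 and used DESeq2, per the submitters' processing notes, and deposited whole-number counts per gene symbol for both experiments, without normalization, and TPM for the LNCaP-ER libraries. Versions, annotation and the treatment of reads shared by paralogs or pseudogenes are not given in the sources used here. Overexpression columns were matched to samples by line, MUC1-C and replicate number, and 12 columns of other cell lines were not used.

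Each experiment was fitted with edgeR 4.0.16 (R 4.3.3) as the quasi-likelihood test with TMM, robust dispersion, the default filter on low counts and Benjamini-Hochberg adjustment over all genes tested, calling an adjusted p under 0.05. The fit was tested on simulated data in which few genes were changed, so that test does not bear on scaling where many genes differ. Alternatives were DESeq2 1.42.0, scaling by library size only or by median-of-ratios factors, a filter of at least 10 counts in every library or none, the replicate block, leaving out each library and limma 3.58.1 on log2(TPM + 1) for genes with at least 1 TPM in 3 libraries. A TPM rescaled without short RNAs was added after values had been seen. The same counts were also divided by library totals for levels across tables. Lengths came from the ratio of counts to TPM, and TPM-like values were scaled over 20511 genes listed in both tables with such a length.

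The members and lists were chosen with earlier results of these data known. All members, MUC1, each tested gene of the list of alternative enzyme forms, the 3 genes of smallest p per direction of each other list in the overexpression comparison and the 3 genes most like LDHA, LDHB and SLC16A1 were named. MYC, PDK1, PDK2, PDK3 and the DOX values of SLC16A7 and MYC were added after values were seen. Between 13806856 and 45807989 counts per library were available. Counts carry no molecular identifiers. Some genes of the luminal marker list are not reported here, and its sums leave them out.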

Additional observations from a re-analysis of the deposited data

How the results depend on the processing

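The 6 higher and 1 lower calls with overexpression were found also with DESeq2, median-of-ratios factors, both other filters and the replicate block. Under library size only they became 3 higher and 3 lower, and PGK1 reversed to -0.0125 (edgeR adjusted p = 0.825), or 0.15 relative to the median of all genes, and the share of called genes that were higher went from 49.4% to 32.3%. Leaving out 1 library gave 5 to 6 higher and 0 to 1 lower, with ALDOA lost without LNCaP replicate 2 and PGK1 without LNCaP replicate 3. With DOX, leaving out 1 library gave 0 to 1 higher, 4 lower each time and 2002 to 5243 genes called in all, the most without the library labelled DOX replicate 2 and the fewest without vehicle replicate 3 (2200 without vehicle replicate 2 and 2067 without DOX replicate 3), against 4006. Library size only gave 1 higher, ENO1 (0.34), and 59.6% of called genes higher, against 46.8%. On the TPM scale 5 were higher and 0 lower, and LDHA and LDHB reversed to 0.0344 and 0.0267. RN7SK and other short RNAs held 52.5% to 75.2% of TPM, less in each library labelled DOX than in any vehicle library, and once they were left out and TPM rescaled, 1 was higher and 4 lower. Same-numbered libraries did not deviate together (correlations of -0.15 to 0.09), and the replicate block gave 6 higher and 1 lower with overexpression, 0 and 4 with DOX, and 8965 and 4226 genes called. Across tables, TMM over shared genes changed no direction (LDHB -2.99 against -3.19). Depth limits SLC16A3, which had at most 8 counts outside the libraries labelled DOX.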

Other observations

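HNRNPA1, a splicing factor of the PKM list, was at 56.7 ± 4.77 CPM in the libraries labelled LNCaP and at 820 ± 33.5 CPM in LNCaP-ER vehicle (SD, n = 3 each). This gap was in the direction opposite to that of most lower glycolysis genes. Levels of HNRNPA1 were 76.9 and 549 CPM in LNCaP/MUC1-C OE and in the libraries labelled DOX. Most other splicing factors of the list did not share its direction, as CPM after TMM scaling within each experiment. HNRNPA2B1 (1700 and 483), SRSF3 (570 and 301), PTBP1 (471 and 411) and PTBP2 (83.1 and 26.6) were lower in LNCaP-ER vehicle. RBM4 (32.4 and 50.8) was higher there. RefSeq names 101 pseudogenes for 9 of the 10 genes, of which GAPDH has 65 and PGAM1 has 13, and only 1 of the 101, a PGAM1 copy, was listed in each table. It had 0 counts in the overexpression table and 24 in the LNCaP-ER table. Where reads from such copies were counted was not tested.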
